A study of Mus musculus with 9 samples.

Results

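Cdc42ep1, Hivep2, Lonrf3 and Gsdma are 4 coding genes whose names carry a transcript that stood, on average, higher or lower in islets of pregnant than of virgin mice. They were chosen by name from a table of transcript levels, after a fit that pairs libraries by replicate number had called Lonrf3 and Gsdma higher and Cdc42ep1 and Hivep2 lower in pregnancy. The table used here holds 10706 names, of which 1284 are names of coding genes and 9300 of long noncoding RNA genes, and the 4 loci are among the 2377 with a mean FPKM of at least 0.5 that were tested. FPKM is the number of fragments counted at a transcript, scaled by the transcript's length and by the total of fragments in that library. Each of the 4 names has 1 line in the table, with no transcript identifier. The value is therefore read as the level of a transcript of unknown identity at that gene and not as the level of its messenger RNA.

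The samples are pancreatic islets, the clusters of hormone-producing cells in the pancreas, isolated from female mice. One group was virgin (5 libraries) and the other was pregnant, at the gestational day that its label GD14.5 gives (4 libraries). The labels give no strain, age, genotype or parity, and leave unsaid whether each library is 1 animal or a pool. The p-values below therefore measure the spread between these libraries, which may be technical. RNA was bulk, so a change in the number of cells of a type and a change in RNA per cell cannot be told apart. Of 63 marker symbols for islet, exocrine, vascular, connective tissue, immune, blood and glial cells, 5 have a line in the table (Ttr, Sox9, Col1a1, Col3a1 and Pdgfra) and 1 was tested. The islet hormone genes among these symbols have no line in the table used here, so the tissue label could not be checked against them. The summed FPKM of a library ranged from 5415.3 to 20530.6, and it was largest in virgin replicates 4 and 5 and GD14.5 replicate 4. The sequencing depth is unknown.

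Beta cells, the insulin-producing cells of the islet, enlarge their mass in rodent pregnancy under the influence of prolactin and placental lactogen, which signal through the prolactin receptor and STAT5. The 4 genes come from unrelated families. Cdc42ep1 (also named Borg5) encodes an effector that binds the active form of the small GTPase Cdc42 and helps to organise septins and actin, and Cdc42 itself is known in beta cells for its part in insulin granule release. Hivep2 (Schnurri-2) encodes a large zinc finger transcription factor that binds sites resembling those of NF-kappa-B and works with SMAD proteins downstream of BMP ligands. Lonrf3 encodes a protein with RING finger and LON substrate-binding domains of the kind found in ubiquitin ligases. Gsdma encodes a gasdermin, a family whose freed amino-terminal part forms membrane pores, and it is best known from skin.

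On GRCm38.p6, RefSeq places Cdc42ep1 on chromosome 15 (78842647 to 78850902), Hivep2 on chromosome 10 (13961609 to 14151378), Lonrf3 on chromosome X (36328358 to 36366857) and Gsdma on chromosome 11 (98664337 to 98677708). All 4 are on the plus strand in GENCODE M21, an annotation of the same build. RefSeq lists 1, 23, 2 and 2 transcripts for them in that order, and 0 of these carry a noncoding accession. This is also so for 451 of the 579 tested loci that carry a coding gene's name. GENCODE adds noncoding forms at only some of them. Lonrf3 has a retained-intron transcript of 2278 bases, and Hivep2 has a retained-intron transcript of 758 bases and a processed transcript of 2899 bases. Cdc42ep1 and Gsdma have 1 transcript each in GENCODE, both coding, of 2560 bases in 3 exons and 2726 bases in 12 exons.

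Other genes overlap some of the loci. Lgals2 lies on the minus strand and overlaps the 3′ end of Cdc42ep1 by 43 bases in RefSeq and 38 in GENCODE. At Hivep2, GENCODE has 2 genes on the minus strand, Gm26835 and Gm28289, and RefSeq places the noncoding Gm51759 within the gene. RefSeq also places a small nuclear RNA gene of 104 bases, LOC115489189, within Lonrf3. No source used here gives the strand setting of the counting, so reads of overlapping genes cannot be told apart. Stretches of 50 bases in the GENCODE transcripts of each gene were sought, on either strand, in transcripts of other genes. At Gsdma 8.26% of them also occur there, all in its neighbours Gsdma2 and Gsdma3. The share is 6.51% at Hivep2, where Gm26835 holds 4.31% and Gm28289 1.48%. It is 0 of 2511 stretches at Cdc42ep1 and 0 of 3811 at Lonrf3. The overlap of Lgals2 with Cdc42ep1 is shorter than 50 bases, so this count cannot show it. By these shared stretches alone, reads at Gsdma and Hivep2 are less certain in origin than those at the other 2 loci.

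The sequence before the first annotated start is shown for Cdc42ep1 and Lonrf3, the only loci of the 4 with a window that reaches before that start. The RefSeq promoter table (GRCm38.p6) holds windows for 3 of the 4 genes, Cdc42ep1, Hivep2 and Lonrf3. The Hivep2 window lies past the first RefSeq start of the gene and is not shown. Both stretches are on the plus strand and end at the base before the earliest start in RefSeq or GENCODE. Capitals mark GC boxes (GGGCGG) at Cdc42ep1 (chr15:78842397-78842623) and a CCAAT box (CCAAT) at Lonrf3 (chrX:36328159-36328352), searched on both strands.
Cdc42ep1: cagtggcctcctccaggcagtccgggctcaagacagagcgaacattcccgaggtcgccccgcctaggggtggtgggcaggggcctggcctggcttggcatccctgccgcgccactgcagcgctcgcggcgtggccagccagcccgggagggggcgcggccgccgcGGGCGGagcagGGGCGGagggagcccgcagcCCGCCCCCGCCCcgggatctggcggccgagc
Lonrf3: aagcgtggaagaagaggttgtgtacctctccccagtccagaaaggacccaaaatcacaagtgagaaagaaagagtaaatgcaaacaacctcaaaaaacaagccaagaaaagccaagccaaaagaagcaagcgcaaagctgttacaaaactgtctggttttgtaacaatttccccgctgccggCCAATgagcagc

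The stretch at Cdc42ep1 was 78.4% G and C and held 4 GC boxes, which did not overlap one another. The stretch at Lonrf3 was 45.4% G and C and held 1 CCAAT box. Over the whole windows of 300 bases, which reach past the start, GC boxes were found 5 times at Cdc42ep1, 2 times at Hivep2 and 0 times at Lonrf3, while 35.7% of all 32851 windows held at least 1. The Lonrf3 window held 1 match each to CCAAT, to the TATA box TATAAA and to the E-box CACGTG, which occurred in 37.4%, 13.6% and 7.15% of all windows. Of these, only the CCAAT match lies wholly before the first annotated start of Lonrf3. The STAT5 motif TTCNNNGAA, found in 8.30% of windows, had 0 matches in the 3 windows. The other motifs searched were CRE (TGACGTCA), AP-1 (TGANTCA), NF-kappa-B and the estrogen response element, with 0 matches in the 3 windows. A match or its absence in these windows describes letters only.

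Lonrf3 stood higher at GD14.5. Its transcript was at 0.31, 0.19, 0.09, 1.28 and 1.21 FPKM in virgin replicates 1 to 5, and at 1.29, 1.23, 1.35 and 5.04 FPKM in GD14.5 replicates 1 to 4. The group means were 0.616 ± 0.580 FPKM (SD, n = 5) and 2.23 ± 1.88 FPKM (SD, n = 4). The groups overlapped, because virgin replicate 4 lay above GD14.5 replicate 2. GD14.5 replicate 4 was far above the other 3 GD14.5 libraries, which lay within 1.23 to 1.35 FPKM.

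Gsdma, too, was highest in GD14.5 replicate 4. It was at 0.67, 0.34, 0.52, 2.52 and 1.98 FPKM in virgin replicates 1 to 5, and at 1.51, 1.91, 1.10 and 8.61 FPKM in GD14.5 replicates 1 to 4. The means were 1.21 ± 0.979 FPKM (SD, n = 5) and 3.28 ± 3.57 FPKM (SD, n = 4). Virgin replicates 4 and 5 were above 3 of the 4 GD14.5 libraries, so the groups overlapped more than at Lonrf3.

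Cdc42ep1 stood lower at GD14.5. Its transcript was at 8.81, 1.49, 0.96, 2.56 and 4.69 FPKM in virgin replicates 1 to 5. In GD14.5 replicates 1 and 2 it was at 2.78 and 1.05 FPKM, and replicates 3 and 4 are listed at 0. The medians were 2.56 and 0.525 FPKM, and the groups overlapped. Replicate 1 was the highest library of both groups.

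Hivep2 was listed at 0 in 5 of 9 libraries. Virgin replicates 2, 3 and 4 were at 2.31, 3.54 and 1.66 FPKM, while virgin replicates 1 and 5 are listed at 0. At GD14.5 only replicate 3 had a value above 0, of 0.55 FPKM. Hivep2 reached the minimum for testing through its virgin libraries alone, since its GD14.5 mean was 0.138 FPKM, while the other 3 loci reached it in both groups. A value listed at 0 may be a failed estimate as well as an absent transcript, which was not tested.

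**Figure D1:**
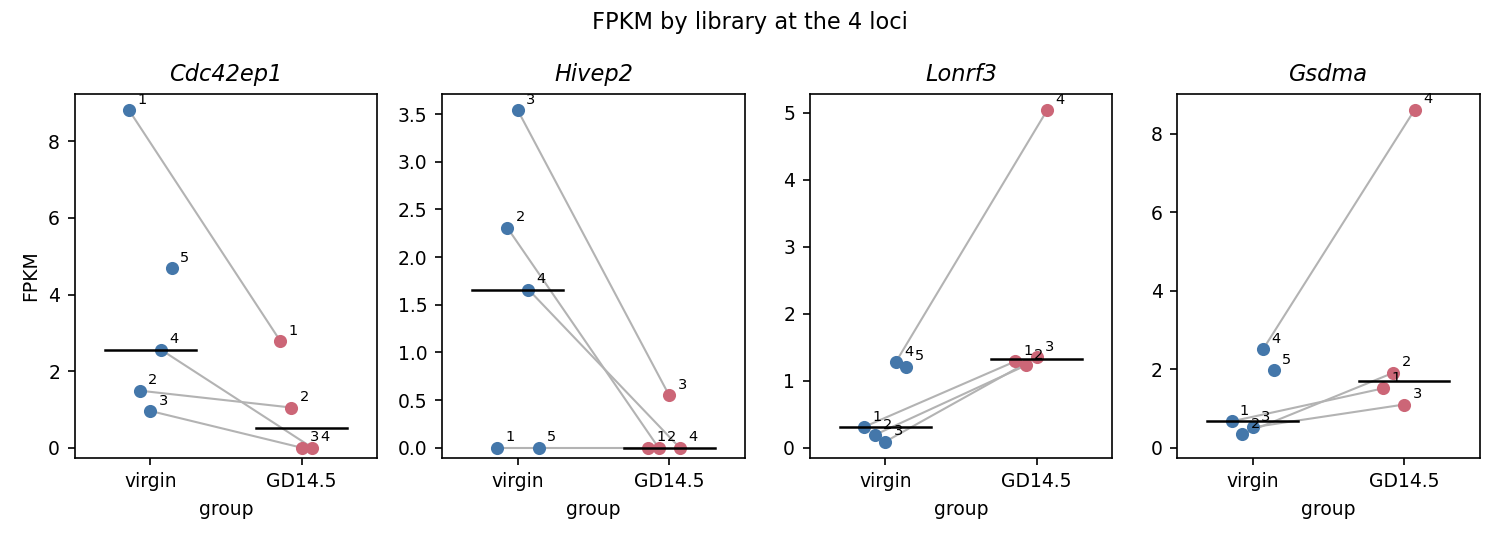
FPKM (vertical axis, linear, a scale of its own for each gene) of the 4 loci in each virgin and GD14.5 library; numbers are replicate numbers, grey lines join equal numbers and black bars are group medians. Lonrf3 and Gsdma are highest in GD14.5 replicate 4 (5.04 and 8.61 FPKM), and Cdc42ep1 and Hivep2 are listed at 0 in 2 and 3 of the 4 GD14.5 libraries.

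Between libraries of equal number, GD14.5 was above virgin at Lonrf3 in 4 of 4 pairs, by 1.14, 1.33, 1.65 and 1.64 on the log2(FPKM + 0.5) scale, on which all log2 values here are given. At Gsdma it was above in 4 of 4 pairs, by 0.78, 1.52, 0.65 and 1.59. At Cdc42ep1 it was below in 4 of 4 pairs, with differences of −1.51, −0.36, −1.55 and −2.61. The Hivep2 difference was 0 in pair 1, where both libraries are listed at 0, and −2.49, −1.94 and −2.11 in pairs 2 to 4. The blocked fit that chose the loci rests on these differences, so they describe the choice and do not add to it.

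The libraries differ in their overall level in this table, and the 4 loci differ in how they follow it. The median FPKM over tested loci was 0.60 to 2.54 in virgin libraries and 0.790 to 1.68 at GD14.5. Divided by its library's median, Lonrf3 was at 0.101 to 0.584 in virgin islets, with a median of 0.476, and at 1.41 to 3.00 at GD14.5, with a median of 1.59. Gsdma was at 0.276 to 1.15 in virgin islets (median 0.779) and 1.26 to 5.13 at GD14.5 (median 2.05). On this relative scale the groups no longer overlapped at either locus. Over all tested loci, GD14.5 lay wholly above virgin at 66 (2.78%) and wholly below at 62 (2.61%) on this scale, against 10 (0.421%) and 4 (0.168%) with FPKM as deposited.

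The lower pair of loci did not separate on the relative scale. Cdc42ep1 was at 14.7 times the library median in virgin replicate 1 and at 1.08 to 1.85 times in the other virgin libraries, and at 3.52 and 1.21 times in GD14.5 replicates 1 and 2. Hivep2 was at 0.758 to 3.98 times the median in the 3 virgin libraries where it had a value, and at 0.632 times in GD14.5 replicate 3. The values listed at 0 stay at 0 under any scaling.

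**Figure D2:**
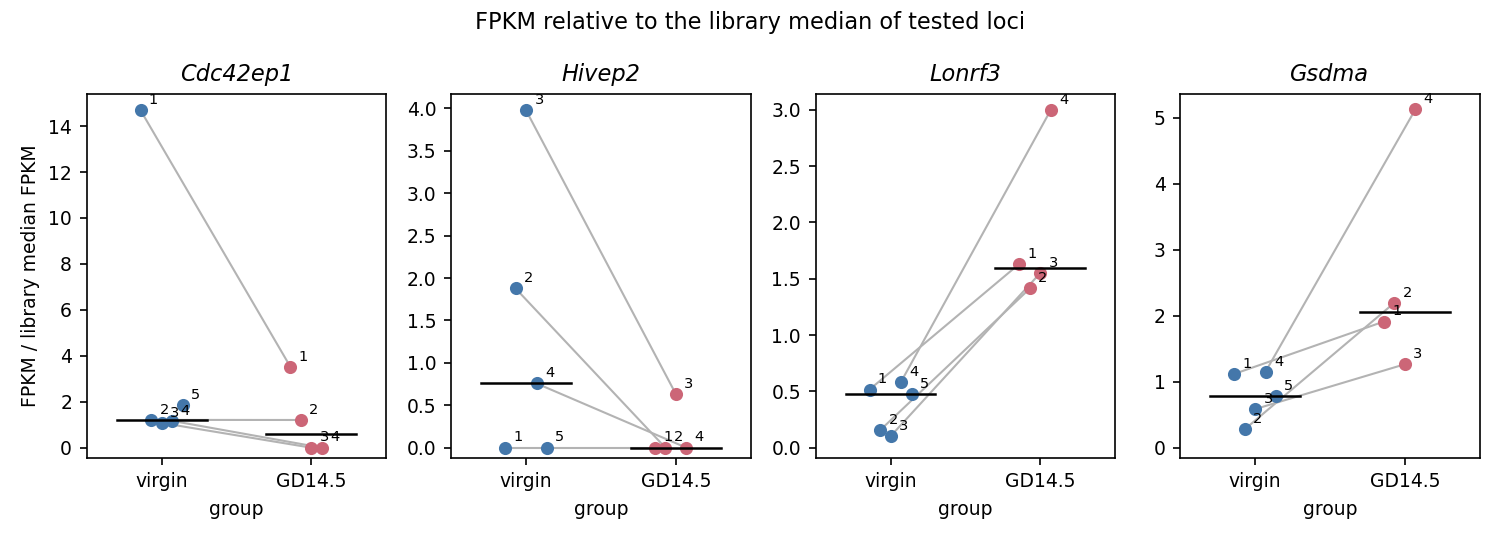
FPKM divided by the median FPKM of tested loci in the same library (vertical axis, linear, a scale of its own for each gene), with replicate numbers, grey lines between equal numbers and black bars at group medians. All GD14.5 libraries lie above all virgin libraries at Lonrf3 (at least 1.41 against at most 0.584) and Gsdma (at least 1.26 against at most 1.15), and the groups overlap at Cdc42ep1 and Hivep2.

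The differences were estimated with limma over all 2377 tested loci. Without the replicate block, the log2 fold change was 1.25 ± 0.43 (SE) for Lonrf3, 0.95 ± 0.50 for Gsdma, −1.66 ± 0.56 for Cdc42ep1 and −1.26 ± 0.51 for Hivep2. The median over all tested loci was −0.30, so both directions are to be read from that level. With the block the values were 1.44 ± 0.17, 1.14 ± 0.21, −1.51 ± 0.29 and −1.64 ± 0.32 (SE), against a median of −0.13. No p is given for the 4 loci, because this contrast chose them. At an adjusted p of 0.05 the fit without the block called 4 loci, 0.168% of those tested, all 4 higher and 0 lower, and none of them is among the loci described here. At an unadjusted p under 0.05 it held 26 loci higher and 34 lower. With the block limma called 23 loci higher (0.968%) and 3 lower (0.126%), 1.09% in all, and the 4 loci are among them by construction.

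Without the block, scaling moved the split of higher against lower calls to 25 and 4 with equal library medians (1.22% called) and to 25 and 6 with equal library totals. With the block, equal medians changed it little, from 23 and 3 to 23 and 2 (1.05% called). These fits reuse the contrast that chose the 4 loci, so a call gained or lost among them is no test of them. On equal medians Lonrf3 was at 1.55 ± 0.25 without the block and 1.61 ± 0.14 (SE) with it. Of the 4 loci, it was the only one called there. On equal medians the blocked fit left Gsdma, Cdc42ep1 and Hivep2 uncalled, with log2 fold changes of 1.26 ± 0.27, −1.41 ± 0.36 and −1.48 ± 0.41 (SE). Without the block these 3 were uncalled too, at 1.245 ± 0.35, −1.35 ± 0.86 and −1.12 ± 0.70 (SE) in the same order. The SE at Cdc42ep1 and Hivep2 was thus larger without the block.

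**Figure D3:**
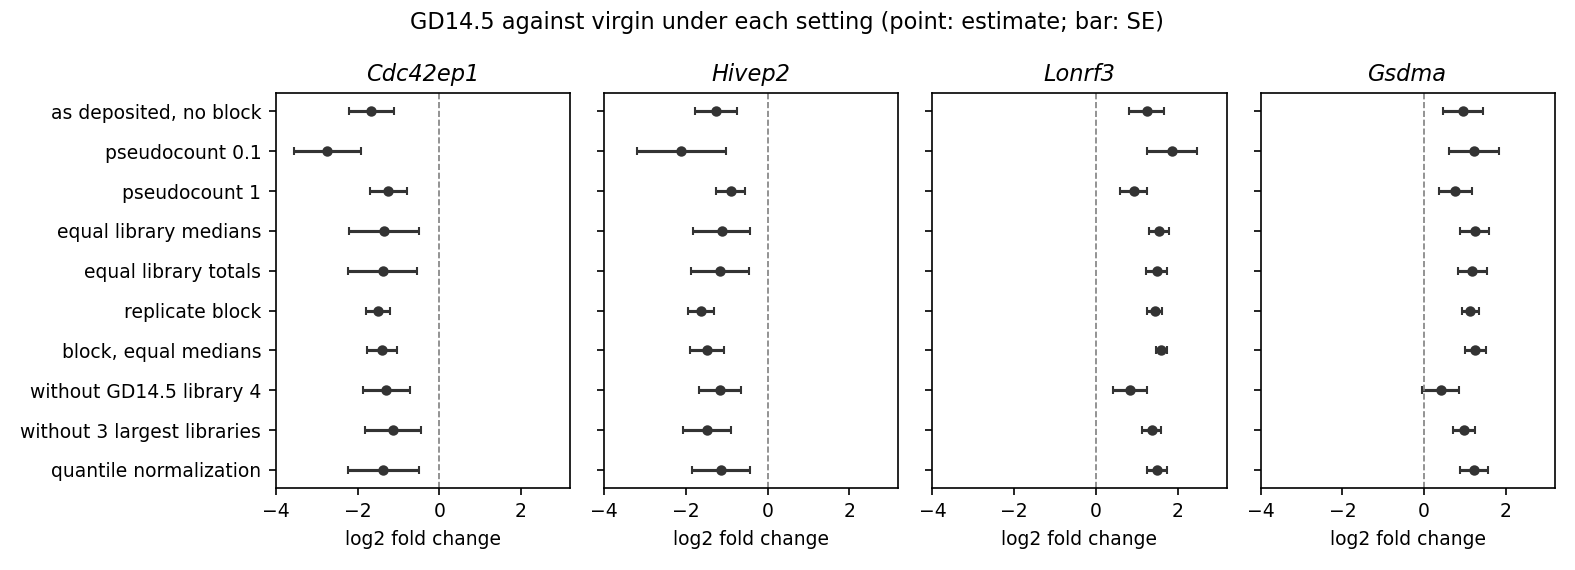
Log2 fold change of GD14.5 against virgin (horizontal axis, point) with its SE (bar) for each of the 4 loci under 10 settings of the fit. The direction is the same in each row shown, and the value nearest to 0 is Gsdma without GD14.5 replicate 4, at 0.40.

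One library weighs on the 2 higher loci. Without GD14.5 replicate 4 and without the block, Gsdma was at 0.40 ± 0.45 and Lonrf3 at 0.84 ± 0.41 (SE). Leaving 1 library at a time out of the blocked fit gave 1.37 to 1.54 for Lonrf3, 0.98 to 1.30 for Gsdma, −1.89 to −1.14 for Cdc42ep1 and −2.18 to −1.35 for Hivep2. A library whose partner is missing does not enter the blocked estimate, so leaving out either library of a pair gives 1 and the same fold change, and leaving out virgin replicate 5 returns the full estimate. These fits reuse the contrast that chose the loci and add no support to the choice. The Gsdma call was lost without either library of number 1, 2 or 4. The Cdc42ep1 call was lost without either library of number 1, and the Hivep2 call without either of number 2. Each of these fits has fewer libraries, so a lost call need not mean a smaller difference. Without number 1, Gsdma was at 1.25, against 1.14 in the full blocked fit, and its call was lost all the same.

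The loci differ in how tightly they are measured. The residual SD, which is the spread of log2 values about the group means, was 1.19 at Cdc42ep1 and 1.13 at Hivep2, above those of 97.3% and 96.5% of tested loci. It was 0.963 at Gsdma (above 92.3%) and 0.779 at Lonrf3 (above 79.8%). With the block it came to 0.175 at Lonrf3, above 22.6% of loci, and to 0.346 at Gsdma, above 77.3%. At Cdc42ep1 and Hivep2 it came to 0.651 and 0.788, which was still above 95.7% and 97.2% of loci.

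Cdc42ep1 and Hivep2 swung between 0 and a clear value among libraries of 1 group. Within a group, at least 1 library listed at 0 and another at 1 FPKM or more was found at 76 of 579 tested coding-named loci (13.1%), and at 22 of 1798 other tested loci (1.22%). Cdc42ep1 and Hivep2 are among the 76, and Lonrf3 and Gsdma are not. The criterion was set after the values had been seen, and the difference between the classes was not tested. In level the 4 loci had means over the 9 libraries of 2.48, 0.896, 1.33 and 2.13 FPKM for Cdc42ep1, Hivep2, Lonrf3 and Gsdma, at the percentiles 55.8, 18.0, 35.2 and 50.4 of tested coding-named loci.

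Libraries of the same group varied together at the 2 higher loci. After each group's mean was removed, Lonrf3 and Gsdma correlated at r = 0.96 over the 9 libraries, which share their overall level. Their r with the log2 summed FPKM of the library was 0.85 and 0.77, where the median tested locus had 0.94. Cdc42ep1 and Hivep2 did not follow that sum, at −0.27 and −0.10, and 1.77% and 2.61% of tested loci had a lower r. Between Cdc42ep1 and Hivep2 r was −0.74. These are descriptions over 9 libraries and carry no p.

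The loci whose deviations were most like those of Lonrf3 were Gm14636, a noncoding locus on the same chromosome (r = 0.99), A730020E08Rik (0.98) and the potassium channel gene Kcna2 (0.98). For Gsdma they were Gm46043 (0.97), Lonrf3 itself (0.96) and the adaptor gene Crkl (0.96). For Cdc42ep1 they were 1700092C10Rik (r = 0.80), the ETS transcription factor gene Elf1 (0.78) and the protocadherin gene Pcdh17 (0.76), 3 loci on chromosome 14. For Hivep2 they were Galnt10 (0.81), which encodes an enzyme of O-glycosylation, Arl5b (0.79), a gene of an ARF-like GTPase, and Gm36391 (0.76). Each was the closest of 2377 loci over the same 9 libraries, whose overall level they share.

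Few other genes of the 4 pathways have a line in the table. Among Cdc42 effectors and regulators, 3 of 35 symbols have a line and 2 were tested, and among Schnurri, SMAD and NF-kappa-B genes 4 of 21 have a line and 3 were tested. Among LON and RING ubiquitin ligase genes it is 4 of 26, all 4 tested, and among gasdermins and pyroptosis genes 3 of 32, with Gsdma the only one tested. Leaving out the 4 loci themselves, 6 pathway genes were tested. Limma called 0 of the 6 without the block (0.168% of all tested loci were called) and 0 with it (1.09%). An unadjusted p under 0.05 was found at 0 of the 6 in either fit, against 2.52% of all tested loci without the block and 9.3% with it. With shares this low, 0 of 6 says nothing particular about these genes. Their median log2 fold change was −0.23, against −0.30 over all tested loci and −0.25 over the coding-named ones.

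The closest relative with a value was Hivep3, the third Schnurri gene, whose virgin libraries averaged 1.46 ± 1.26 FPKM (SD, n = 5) and GD14.5 libraries 0.922 ± 0.533 (SD, n = 4). Hivep3 differed by −0.32 on the log2 scale (95% interval −1.17 to 0.53). Smad5, which encodes a SMAD of the BMP pathway, was at 5.56 ± 2.63 and 4.35 ± 1.60 FPKM, with −0.28 (95% interval −1.24 to 0.69). Arhgef7, which encodes an exchange factor that activates Cdc42 and Rac, was at 3.28 ± 1.504 and 2.60 ± 1.00 FPKM, with −0.25 (95% interval −1.16 to 0.66).

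Of the ubiquitin ligase genes, Rnf168, known for marking histones at DNA breaks, had −0.06 (95% interval −0.80 to 0.68). Traf6, which relays receptor signals to NF-kappa-B, had −0.22 (95% interval −1.30 to 0.87), and Xiap, an inhibitor of caspases, had −0.11 (95% interval −1.003 to 0.79). These intervals do not show that the 6 genes stayed level. Below the minimum for testing, Itsn1 reached at most 0.10 FPKM and Bmpr2 0.34, and the inflammasome gene Aim2 is listed at 0 in all 9 libraries. Of 23 listed islet genes with a known response to pregnancy, 5 have a line and 3 were tested. Ivd and Cish were called higher without and with the block, where 0.168% and 1.09% of all tested loci were called. Lrrc55 went the other way and was not called. It was at 2.06 and 3.43 FPKM in virgin replicates 4 and 5 and at 0.02 in virgin replicate 2, and is listed at 0 in the other 2 virgin and all 4 GD14.5 libraries.

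With the block, limma called 6 of 579 coding-named loci (1.04%) and 20 of the 1798 others (1.11%). The 6 are Ivd, Cish and the 4 loci described here. By rank of p, Hivep2 was the last coding-named locus inside the threshold, and Sh3d19 (−0.78 ± 0.17), Serinc5 (1.10 ± 0.24) and Ahnak (0.99 ± 0.22, SE of the blocked log2 fold change) were the next outside it.

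**Figure D4:**
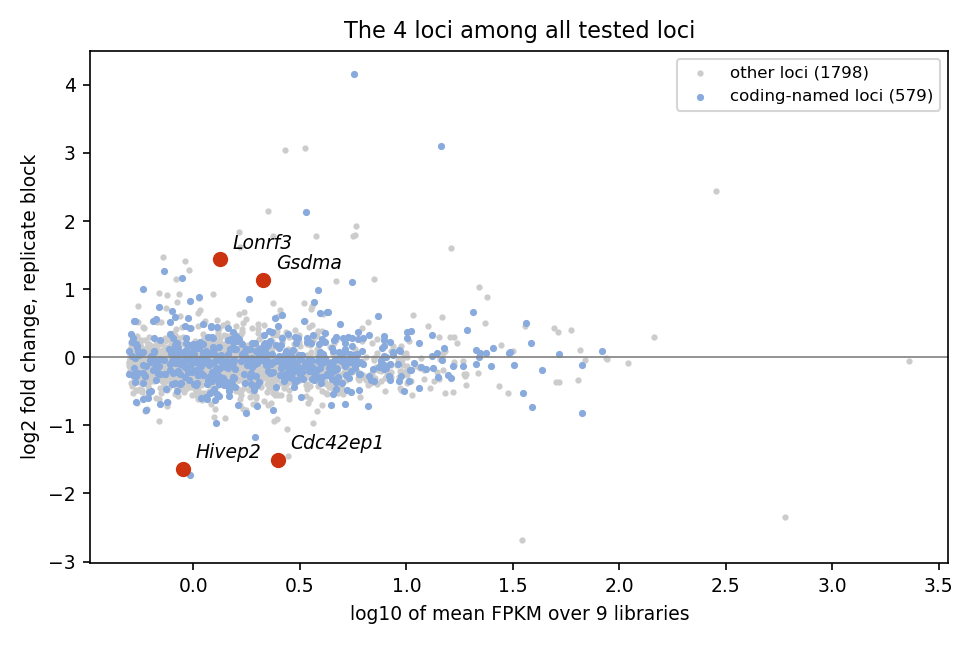
Log2 fold change with the replicate block (vertical axis) against the log10 of mean FPKM over 9 libraries (horizontal axis) for the 1798 other loci (grey), 579 coding-named loci (blue) and the 4 loci described (red). Lonrf3 and Gsdma lie at 1.44 and 1.14 and Cdc42ep1 and Hivep2 at −1.51 and −1.64, at low to middle levels.

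The noncoding loci of the table found beside these genes showed little signal. Gm51759, within Hivep2, was at 0 to 0.10 FPKM in virgin and 0 to 0.04 at GD14.5. Gm26634, 12.06 kb from Cdc42ep1, was at 0 to 0.05 and 0.01 to 0.05 FPKM, and Gm38985, 18.27 kb from Gsdma, at 0.03 to 0.22 and 0.02 to 0.19. None of these 3 reached the minimum for testing. Gm26835 and Gm28289, on the minus strand at Hivep2 in GENCODE, were not among the neighbours found in the table, so their signal is unknown. No other locus of the table overlapped Lonrf3 or had its start coordinate within 50 kb of either end of it. Among cell type markers, Col3a1, a collagen gene of connective tissue, was at 16.23 FPKM in virgin replicate 2, 8.46 in GD14.5 replicate 2 and 8.38 in GD14.5 replicate 4, and is listed at 0 in the other 6 libraries. Its part in the values of the 4 loci was not tested.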

How the data were processed

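Islet RNA of 5 virgin and 4 GD14.5 mouse libraries was extracted with TRIzol and enriched for polyadenylated RNA, per the labels' protocols. The authors deposited FPKM for 26375 transcript lines, rounded to 2 decimals. Per the submitters' processing notes the build is GRCm38.p6, and no source used here names the aligner, quantifier, annotation or strand setting. The 480 lines with a copy suffix were left out, and lines of 1 name were summed. Loci with a mean FPKM of at least 0.5 were compared by limma (version 3.58.1, R 4.3.3, eBayes with trend, two-sided) after taking log2(FPKM + 0.5), with Benjamini-Hochberg adjustment over 2377 loci and a threshold of 0.05. Only the limma fit was tested on simulated data, with the same spread at all loci and no values listed at 0. Without the block, that spread was below the residual SD of each of the 4 loci. With the block, it was below that of Cdc42ep1 and Hivep2 and above that of Lonrf3 and Gsdma. The test therefore does not cover the setting of these loci. The fold change on this scale understates changes of low values.

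The members and gene lists were chosen with earlier results of these data known. Named beside the members are list genes with a line, the 3 loci most correlated with each member and coding-named loci next to the threshold. Table loci that overlap a member, or whose start coordinate lies within 50 kb of either end of it, are named too. After group means were removed, same-numbered libraries correlated at 0.49, 0.20, 0.28 and 0.59, all above the limit of 0.1, and other pairs of numbers 1 to 4 at −0.55 to 0.25. Number 2, at 0.20, lay below the highest of the other pairs. The libraries were not put on equal medians first, so their overall level may enter these correlations, which was not tested. Passing the limit therefore does not establish a pairing, and the labels do not state one. Alternatives changed the pseudocount, filter, scaling, block and libraries. Quantile normalization and the fit without the 3 largest libraries were added after the data were seen.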

Additional observations from a re-analysis of the deposited data

Results flagged for a closer look

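Dixon's criterion for a library that stands apart was applied to 10 sets of values, the 4 loci and the summed FPKM in each group, and 2 passed it. For untied values about 0.5 of 10 sets would pass by chance. Lonrf3 in GD14.5 replicate 4 was at 2.47 on the log2(FPKM + 0.5) scale, while the remaining 3 libraries of the group lay at 0.79 to 0.89. Hivep2 in GD14.5 replicate 3 was at 0.070, and its remaining 3 libraries lay at −1, which is the value of a listed 0. With those 3 tied, any value above 0 in the fourth library passes, so the chance count does not apply to Hivep2. GD14.5 replicate 4 also had the highest Gsdma value of its group, 3.19 against 0.68 to 1.27, which did not pass the criterion.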

How the results depend on the processing

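The 4 log2 fold changes kept their direction and moved by less than 1 residual SD under each alternative run. That SD, taken without the block, is larger than the SE of each fold change, so it is a wide limit. Without GD14.5 replicate 4, Gsdma fell from 0.95 ± 0.50 to 0.40 ± 0.45 (SE) and was still within it. With pseudocounts of 0.1 and 1, the log2 fold change was −2.75 and −1.25 for Cdc42ep1, −2.11 and −0.91 for Hivep2, 1.87 and 0.93 for Lonrf3, and 1.23 and 0.77 for Gsdma. Leaving out each library in turn gave −2.21 to −1.30, −1.64 to −0.88, 0.84 to 1.45 and 0.40 to 1.24 for these genes in that order. The counts of called loci, 4 higher and 0 lower, became 25 and 4 with equal medians, 25 and 6 with equal totals, 24 and 5 with quantile normalization, and 13 and 1 without the 3 libraries of largest summed FPKM. With the replicate block they became 23 and 3, and 23 and 2 with the block on equal medians. Leaving out each library gave 3 to 5 higher and 0 to 1 lower, the 1 without virgin replicate 4. The cause of these moves was not tested. With a minimum mean of 1 FPKM, Hivep2 is not tested. Each member has a single line, so no fit of single lines was needed. Depth is unknown, and low values are limited by rounding to 2 decimals.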
